A study of Homo sapiens with 16 samples.

Results

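LNCaP cells that had lost SLIRP and saw no hormone were compared directly with LNCaP cells that kept SLIRP and received androgen. The first group, SLIRP-Veh, was transfected with a pool of siRNAs against SLIRP and kept in serum-free medium with the ethanol vehicle. The second, NS-1nM DHT, was transfected with a nonsense control siRNA (NS) and kept in the same medium with 1 nM dihydrotestosterone (DHT). The members are the 4 libraries of each of these groups, chosen by their labels, which makes 8 of the 16 libraries of the study. The 4 NS-Veh libraries (nonsense siRNA, vehicle) served as the level without hormone. The 4 SLIRP-1nM DHT libraries entered only the estimate of the spread, the scaling between libraries and the filter on low counts. The comparison asks which transcripts reach, exceed or stay under the level set by the hormone when SLIRP is lost without it. The groups differ in siRNA and in hormone at once, all of them are transfected cells of 1 line, and no untransfected library was analysed here.

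LNCaP is a prostate cancer cell line of luminal type that depends on androgen. DHT acts through a nuclear receptor that drives secretory genes such as KLK3, which encodes prostate-specific antigen. The activity of such receptors is set by coactivators and corepressors. SLIRP is a small RNA-binding protein that holds the noncoding coactivator RNA SRA and represses nuclear receptors, and in mitochondria it pairs with LRPPRC to stabilise mitochondrial mRNAs. Androgen also drives LNCaP cells into the cell cycle, so cell cycle genes belong to the hormone response beside the secretory ones.

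Reads were assigned to genes as estimated counts, and the SLIRP-Veh libraries held between 646600 and 1689708 counts against 969196 to 1371449 in NS-1nM DHT. Values are CPM, that is, each library's counts brought to one total after TMM scaling, which allow a gene to be compared between libraries but not with another gene, since they are not divided by gene length. A total of 3 counts corresponds to between 1.78 and 4.70 CPM in a SLIRP-Veh library, and such floors cover counting error only. SLIRP, listed as C14orf156 (chromosome 14, 78174414 to 78227447 of hg19), checked the labels. It was 2.96, 7.83, 4.04 and 1.75 CPM in SLIRP-Veh replicates 1 to 4 and 45.1, 56.3, 56.6 and 61.4 CPM in NS-1nM DHT, a log2 difference of -3.90 (standard error 0.29, edgeR FDR 1.80e-13). Only 2 to 5 counts per library remained after knockdown, and the locus overlaps exons of C14orf178 and SNW1. Of the marker lists, the 10 luminal genes of LNCaP were all measured, while the basal KRT5 and TP63, the stromal COL1A2 and DCN, the endothelial PECAM1 and CDH5, the leukocyte PTPRC and CD3E and the neuroendocrine CHGA and INSM1 were at 0 counts in the 8 libraries. Other members of these lists were present, COL1A1 with 66 counts in SLIRP-Veh and 53 in NS-1nM DHT and COL3A1 with 21 and 27. The endothelial VWF had 17 and 62 counts and the neuroendocrine SYP 19 and 19. The endothelial sum, which is VWF alone, lay at 2.37 to 6.73 CPM in SLIRP-Veh and up to 17.4 CPM in NS-1nM DHT, without overlap. Summed stromal markers lay at 18.3 to 26.3 CPM and from 12.6 CPM upward, with overlap. No 2 libraries within a group were alike within counting error, since chi-square divided by its degrees of freedom was at least 1.21.

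Of 10684 genes tested, 1192 (11.2%) were higher in SLIRP-Veh than in NS-1nM DHT and 1157 (10.8%) were lower at a false discovery rate (FDR) of 0.01, together 22% of genes. A total of 264 of the higher genes and 253 of the lower genes differed by at least 2-fold. The 4 libraries of a group did not overlap those of the other for 30.9% of genes, with SLIRP-Veh above for 1636 genes (15.3%) and below for 1665 (15.6%). For 3004 genes (28.1%) the 95% interval of the log2 difference lay within 0.5 of 0. By comparison, DHT against NS-Veh called 83 genes higher (0.777%) and 33 lower (0.309%), together 1.09%, while SLIRP siRNA against NS-Veh called 1256 higher (11.8%) and 1063 lower (9.95%), together 21.7%. These comparisons share libraries with the direct one, so their numbers stand beside it and do not support it. With replicates 3 and 4 alone, an alternative chosen after seeing the data, 595 genes were higher and 623 lower, and with replicates 1 and 2 alone 894 and 749.

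Among genes called at the FDR that had a mean of at least 100 counts and groups that did not overlap, 518 were higher and 537 lower. Without these bounds on counts and overlap, 11.2% of all genes tested were called higher and 10.8% lower. The largest rise above the hormone level was that of the alpha-tubulin TUBA1A (chromosome 12, 49578469 to 49582863), at 212, 235, 195 and 172 CPM in SLIRP-Veh against 41.9, 56.3, 24.4 and 52.6 CPM with DHT, a 4.54-fold difference (edgeR FDR 1.38e-13). Its sequence is close to that of other alpha-tubulins and its locus overlaps TUBA1C, so reads can be split between them. Next came PRNP, the prion protein gene (3.59-fold, edgeR FDR 6.29e-13), TYMS, which makes thymidylate for DNA synthesis (3.40-fold), and GGCT, an enzyme of glutathione breakdown (3.11-fold). EIF4G2, a translation initiation factor of the eIF4G family, was the most highly counted of the 10 largest rises, with 2027, 2040, 2122 and 2209 CPM in SLIRP-Veh against 713, 699, 788 and 839 CPM with DHT. None of these differed between DHT and NS-Veh at the FDR. TUBA1A came near it with a fall (-0.76 on the log2 scale, edgeR FDR 0.017) and TYMS with a rise (0.91, edgeR FDR 0.015). The other 5 of the 10 largest rises were TMEM144, HMGB2, TOP2A, NUSAP1 and CENPF.

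The largest falls below the hormone level were those of the interferon-stimulated genes IFI6 and ISG15, described with their group. PSAT1, an enzyme of serine synthesis (Entrez 29968, chromosome 9, 80912041 to 80945009), followed with 74.0, 37.6, 56.5 and 61.4 CPM against 306, 267, 255 and 246 CPM, a 4.40-fold difference (edgeR FDR 1.68e-14). The tight junction gene CLDN12 was 3.83-fold lower (edgeR FDR 1.27e-15), at 54.8 to 68.1 CPM against 229 to 260 CPM. Its locus overlaps CDK14 and GTPBP10. RAC1, a small GTPase of the actin cytoskeleton, lay at 80.7 to 100 CPM against 265 to 284 CPM, and FBXO28 at 106 to 144 CPM against 361 to 412 CPM. PSAT1, CLDN12, RAC1 and FBXO28 were not called between DHT and NS-Veh, where their means were 309, 255, 294 and 331 CPM. The remaining 4 of the 10 largest falls, HERC3, SLC39A10, DEGS1 and KLK3, were all raised by DHT.

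KLK3 (Entrez 354, chromosome 19, 51358171 to 51364020) was called both above NS-Veh and below the hormone level. It was 91.7, 98.6, 99.6 and 96.4 CPM in SLIRP-Veh replicates 1 to 4, and 325, 327, 246 and 254 CPM in NS-1nM DHT, against 25.5 to 52.2 CPM in NS-Veh. The 3 groups did not overlap. SLIRP-Veh was 2.99-fold lower than NS-1nM DHT (log2 difference -1.58, standard error 0.12, edgeR FDR 2.20e-13), while it was higher than NS-Veh by 1.11 on the log2 scale (edgeR FDR 1.04e-06). The NS-1nM DHT libraries fell into a higher pair, replicates 1 and 2, and a lower pair, replicates 3 and 4.

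The neighbouring kallikreins KLK4 and KLK2 also stayed below the hormone level. KLK4, a serine protease of prostate fluid (chromosome 19, 51409607 to 51414651), was 52.1, 45.4, 44.4 and 39.4 CPM in SLIRP-Veh and 149, 155, 97.5 and 133 CPM with DHT, a log2 difference of -1.54 (edgeR FDR 1.19e-09). Its rise from NS-Veh with knockdown, 0.51 on the log2 scale, missed the threshold (edgeR FDR 0.066). KLK2, whose protein activates prostate-specific antigen, had only 3 to 8 counts per SLIRP-Veh library against 28 to 35 with DHT. That is a mean of 6.13 CPM against 28.2 CPM (log2 difference -2.20, edgeR FDR 1.06e-07), and 2.41 CPM in NS-Veh. With knockdown KLK2 lay 1.25 above NS-Veh on the log2 scale, which also missed the threshold (edgeR FDR 0.053). KLK2 and KLK3 are close in sequence, so reads of one can be counted in the other.

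TMPRSS2 and FKBP5 lay nearer to the hormone level than these kallikreins. TMPRSS2, a membrane serine protease, was 105, 135, 163 and 117 CPM in SLIRP-Veh against 174, 194, 148 and 165 CPM with DHT, so that the groups overlapped (log2 difference -0.44, edgeR FDR 0.00556). This call was lost with DESeq2, with limma on the normalized table and without SLIRP-Veh replicate 1 or 4 or NS-1nM DHT replicate 1 or 2, when the difference ranged from -0.56 to -0.33 over the libraries left out, and its locus overlaps MX1. FKBP5, a co-chaperone of steroid receptors, was 115, 144, 88.8 and 99.0 CPM against 101, 96.4, 101 and 97.3 CPM. The difference of 0.16 had a 95% interval of -0.09 to 0.42 and did not pass the test (edgeR FDR 0.352). FKBP5 was higher with knockdown than in NS-Veh (0.73 on the log2 scale, edgeR FDR 1.24e-04), while its rise with DHT missed the threshold (edgeR FDR 0.0220).

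**Figure D1:**
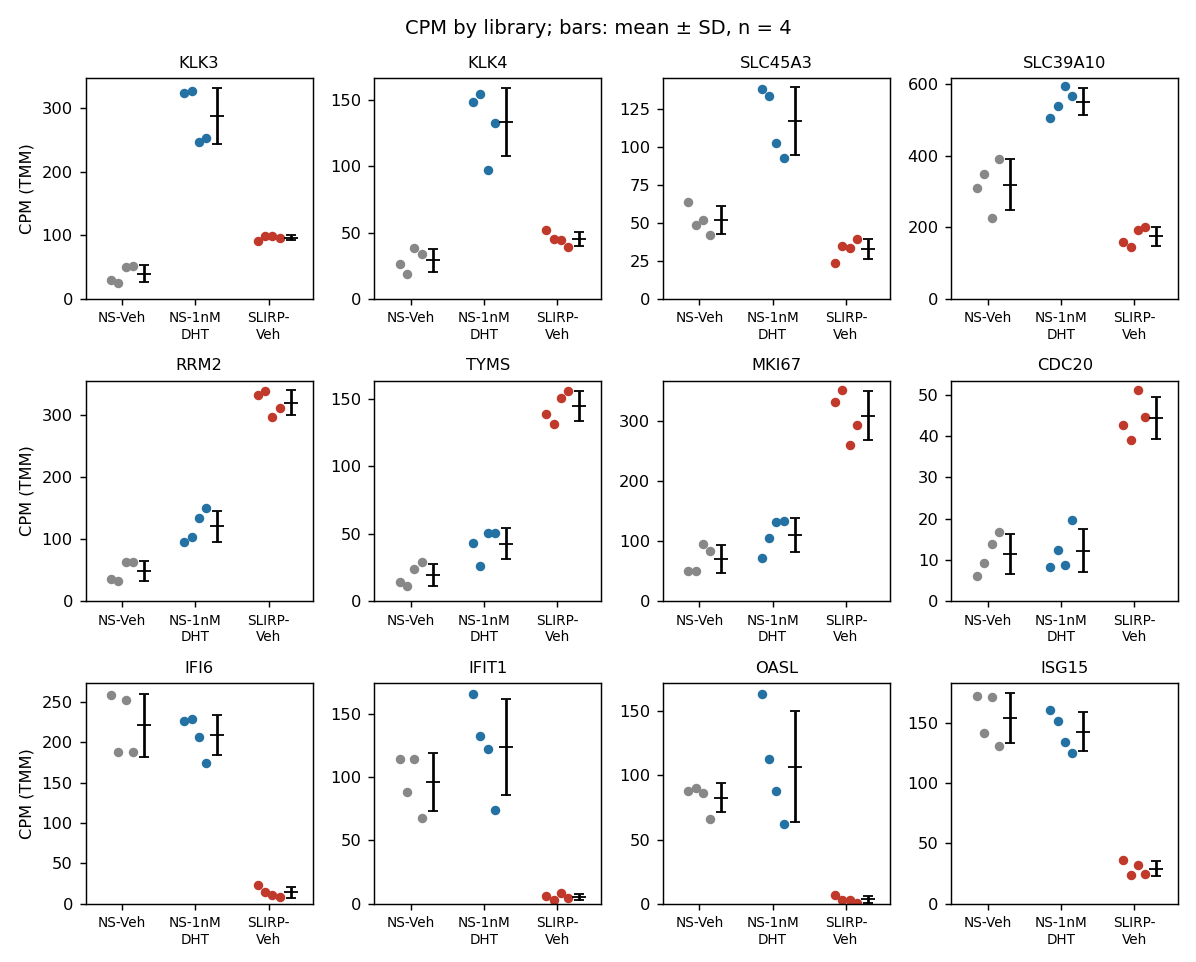
CPM of 12 genes in each NS-Veh (grey), NS-1nM DHT (blue) and SLIRP-Veh (red) library, with the mean and SD of the 4 libraries in black. The top row shows genes raised by DHT, in which SLIRP-Veh stays below the hormone group, the middle row cell cycle genes, in which it lies above, and the bottom row interferon-stimulated genes, in which both NS groups are high.

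Of 44 androgen-induced genes listed from prostate epithelium, 37 had enough counts to test. Of these, 23 were lower in SLIRP-Veh than with DHT, 1 was higher and 13 did not pass, against 10.8% lower and 11.2% higher over all genes tested. The list's median log2 difference was -0.77, beside 0.00 over all genes. Examples are SLC45A3, the prostein gene, at 23.7 to 39.4 CPM against 92.9 to 138 CPM (log2 difference -1.87, edgeR FDR 2.69e-11), and HERC3, a ubiquitin ligase (-1.68). The member that was higher was INSIG1, which retains sterol sensing proteins in the endoplasmic reticulum, with 0.53. With SLIRP siRNA against NS-Veh, 4 members were called higher and 9 lower, with a median of -0.12. In that comparison 11.8% of all genes tested were higher and 9.95% lower. The summed CPM of the 10 luminal markers lay between 2996 and 3155 in SLIRP-Veh, 4202 and 4826 in NS-1nM DHT and 4117 and 4361 in NS-Veh, and 8 of the 10, among them KRT8, were lower than with DHT. Of the 10 markers, 5 were themselves called higher with DHT against NS-Veh, beside 0.777% of all genes tested. The part of this lower luminal sum in the androgen-induced counts was not tested. In bulk RNA of 1 cell line, fewer cells that express these genes and less of their RNA per cell cannot be told apart.

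Every gene called for DHT was then placed by the level that knockdown alone reached. A gene was beyond the hormone level when knockdown moved it the same way as DHT and the direct comparison was called in that direction. It was at the hormone level when knockdown moved it that way, the direct comparison was not called and its 95% interval lay within 0.5 on the log2 scale. It was short of that level when knockdown moved it that way and the direct comparison was called against DHT. It was not moved that way when knockdown gave no call in the direction of DHT and the direct comparison was called against it. A missing call is not a missing change. KLK2 and KLK4 are in this class, though knockdown placed them 1.25 and 0.51 above NS-Veh. Of the 83 genes raised by DHT, 27 were beyond the hormone level, 13 at it, 1 (KLK3) short of it and 32 not moved that way, and 10 could not be placed. NS-1nM DHT stands in 2 of the 3 contrasts behind these classes and NS-Veh in 2, so the counts are a description. They also rest on single libraries. The 27 became 6, 10 and 17 without NS-1nM DHT replicate 4, 3 or 1 and 14 and 17 without SLIRP-Veh replicate 1 or 3. The 13 became 4, 7 and 8 without NS-1nM DHT replicate 1, 3 or 4 and 8 without SLIRP-Veh replicate 1 or 4, and the 1 short of the level became 2 without SLIRP-Veh replicate 2.

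**Figure D2:**
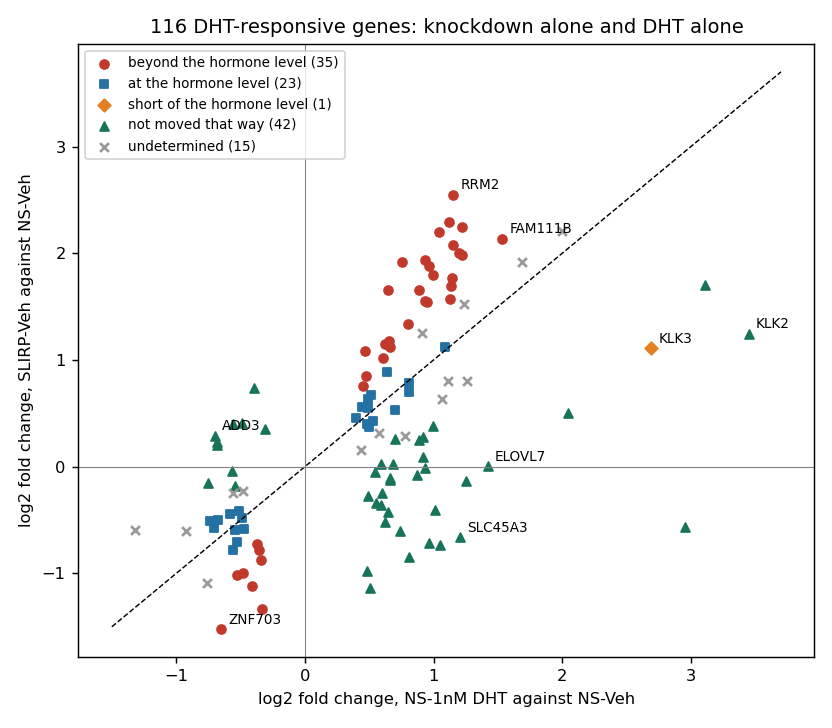
Each point is 1 of the genes called for DHT (83 raised, 33 lowered), with its log2 change with DHT on the horizontal axis and with SLIRP siRNA on the vertical axis, both against the same NS-Veh libraries. Points on the dashed line have equal changes, and the direct difference is the height above it: RRM2 lies above the line, KLK3 and KLK2 below it, and SLC45A3 below 0.

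Many of the 27 genes beyond the hormone level belong to the cell cycle. Of them, 13 are on the S phase or mitotic lists and 6 are histone genes. These lists hold 58 and 72 of the 10684 genes tested, and 11 and 4 of the 83 raised by DHT. RRM2, the small subunit of the reductase that makes deoxynucleotides (Entrez 6241, chromosome 2, 10260825 to 10351851), was 334, 340, 297 and 312 CPM in SLIRP-Veh, 96.5, 104, 134 and 150 CPM with DHT and 48.8 CPM as the mean in NS-Veh. The direct difference was 1.39 (standard error 0.11, edgeR FDR 2.57e-12). ESCO2, which ties sister chromatids together, differed by 1.02 (edgeR FDR 8.77e-05), and NCAPH, a condensin subunit, by 0.76 (edgeR FDR 0.0012). FAM111B was between 116 and 193 CPM against 91.2, 98.7, 118 and 95.8 CPM, so its groups overlapped (0.60, edgeR FDR 0.0020). Its call was lost with DESeq2 and without SLIRP-Veh replicate 1 or 2, and those of NCAPH and HIST1H2AL without NS-1nM DHT replicate 2, when the differences fell to no less than 0.48, 0.65 and 0.65. With limma on the normalized table the calls of these 3 genes and of ESCO2 were all lost. Replication-dependent histone genes such as HIST1H2AL are close copies of each other, so their counts can be split. Others in the class were the helicase subunits MCM2, MCM3, MCM4 and MCM6, the clamp PCNA, the flap endonuclease FEN1, BRCA1 and the mitotic kinase CDK1.

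The 13 genes at the hormone level were of mixed function, and none was on the androgen-induced or cell cycle lists. C6orf167 was 31.4, 43.8, 36.3 and 25.4 CPM in SLIRP-Veh and 34.6, 33.2, 35.7 and 26.3 CPM with DHT, against a mean of 14.2 CPM in NS-Veh. SLC9A2, a sodium-proton exchanger, had 63.3, 68.9, 56.5 and 59.6 CPM against 68.2, 62.5, 64.4 and 57.8 CPM, a difference of -0.02 with a 95% interval of -0.30 to 0.26. The kinase STK39, which controls ion cotransporters, differed by -0.11 (interval -0.38 to 0.16). PPIF, the cyclophilin of the mitochondrial permeability pore, lay higher by 0.25 with an interval of 0.03 to 0.48, just inside the margin. The groups of none of the 13 were apart without overlap, against 30.9% of all genes tested. The definition, which admits no called direct difference, favours this.

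The 32 genes not moved that way held 16 of the androgen-induced list and none of the cell cycle lists. The androgen-induced list has 37 members among the 10684 genes tested and 19 among the 83 raised by DHT. With knockdown 9 of the 32 were called below NS-Veh, beside 9.95% of all genes tested, and 21 had a negative change. The absence of any called higher follows from the definition. ELOVL7, which elongates saturated fatty acids, was 20.1, 21.9, 25.6 and 26.3 CPM in SLIRP-Veh and 25.2 CPM as the mean in NS-Veh, but 72.3, 53.2, 56.6 and 66.5 CPM with DHT. SLC39A10, a zinc importer, was 159, 146, 192 and 201 CPM in SLIRP-Veh, 505, 538, 594 and 567 CPM with DHT and 319 CPM in NS-Veh, so that it fell below both. DEGS1, a desaturase of ceramide synthesis, lay at 186 to 198 CPM against 507 to 696 CPM. AADAT, an aminotransferase of kynurenine and lysine breakdown, differed by -1.38. HERC3 had 303 and 271 CPM in NS-1nM DHT replicates 1 and 2 and 174 and 175 CPM in 3 and 4. These 4 libraries were paired as for KLK3.

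**Figure D3:**
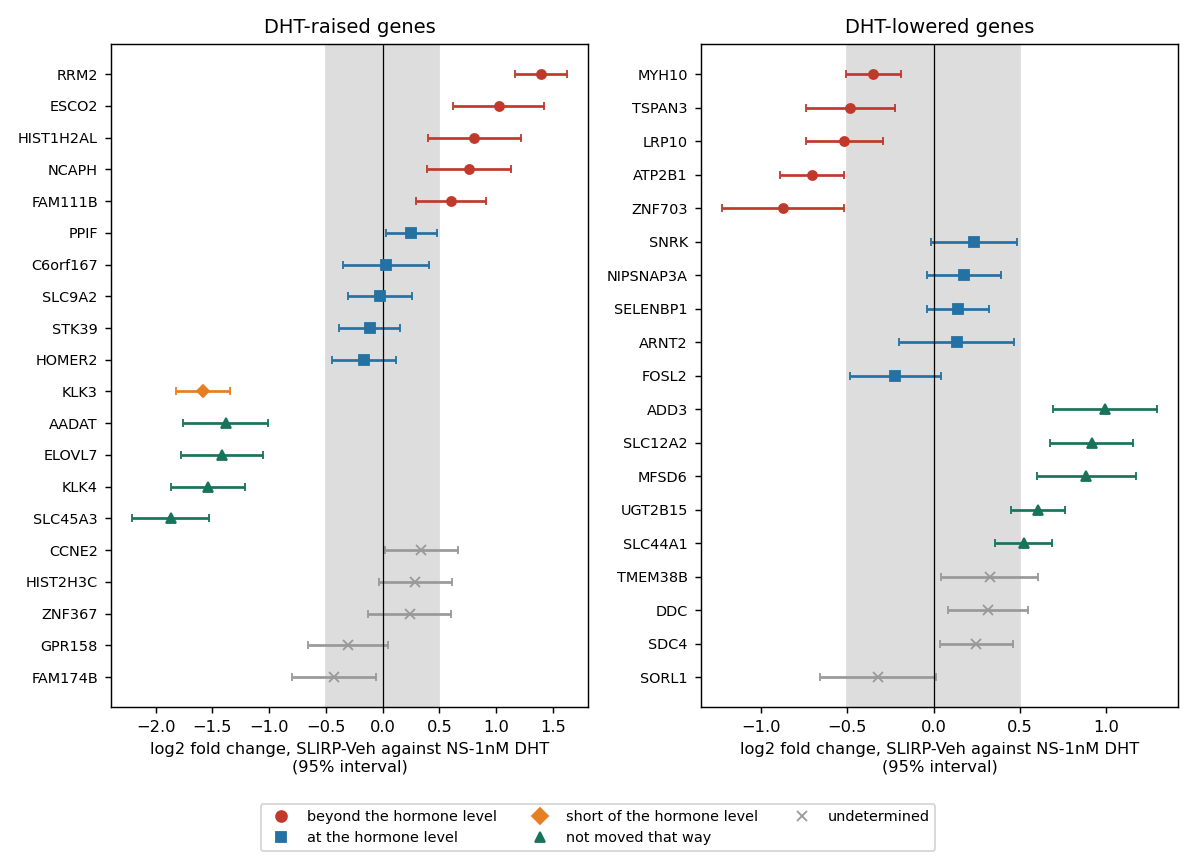
Log2 difference between SLIRP-Veh and NS-1nM DHT, with its 95% interval, for the genes named in each class, with the margin of 0.5 shaded. Genes at the hormone level lie inside the shading, those beyond it on the side of the DHT change, and those not moved that way, such as SLC45A3 (-1.87) and ADD3 (0.99), on the opposite side.

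Of the 33 genes lowered by DHT, 8 were beyond the hormone level, 10 at it, 0 short of it and 10 not moved that way, and 5 could not be placed. The 8 became 5, 2, 3 and 0 without NS-1nM DHT replicate 1, 2, 3 or 4, and the 10 not moved that way became 6 without NS-1nM DHT replicate 3. ZNF703, a zinc finger repressor (chromosome 8, 37553300 to 37557537), was 22.5, 26.6, 22.9 and 25.4 CPM in SLIRP-Veh, 37.7, 46.3, 44.4 and 46.8 CPM with DHT and 70.6 CPM in NS-Veh. ATP2B1, a calcium pump of the plasma membrane, and LRP10 differed by -0.71 and -0.52. TSPAN3 differed by -0.48, a call lost without SLIRP-Veh replicate 1 or 4 or NS-1nM DHT replicate 3 or 4 (range -0.54 to -0.41). At the hormone level stood SELENBP1, a methanethiol oxidase, with 311, 291, 250 and 299 CPM against 244, 258, 272 and 276 CPM, and the kinase SNRK, the transcription factor ARNT2, NIPSNAP3A and the AP-1 subunit FOSL2. UGT2B15, which conjugates androgens for disposal, was 607, 609, 615 and 623 CPM in SLIRP-Veh, 364, 388, 457 and 404 CPM with DHT and 685 CPM in NS-Veh. It stayed 0.60 above the hormone level on the log2 scale (edgeR FDR 7.64e-08), with the limit that UGT2B genes are close copies. ADD3, which caps actin filaments, SLC12A2, the sodium-potassium-chloride cotransporter, and MFSD6 stayed above it by 0.99, 0.92 and 0.89. Of the 11 tested genes of a separate androgen-repressed list, 1 (UGT2B15) was higher and 2 (FOLH1 and DPP4) lower, with a median of 0.00, which is near the 11.2% and 10.8% over all genes. The count of 1 became 2 without SLIRP-Veh replicate 4.

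Cell cycle genes had the highest medians of the 12 pathway lists. Of 58 S phase and replication genes, all tested, 36 were higher in SLIRP-Veh than with DHT, 0 lower and 22 not called, with a median of 0.68. Of 72 mitotic genes, all tested, 63 were higher, 0 lower and 9 not called, with a median of 1.11. Over all genes 11.2% were higher, and the median was 0.00. Against NS-Veh, 11 and 4 of these members were called higher with DHT, beside 0.777% of all genes tested. With SLIRP siRNA against NS-Veh 49 and 69 were called higher, beside 11.8% of all genes. This contrast also sets the pool against the nonsense siRNA, and the part of each was not tested. The size differed between libraries. With replicates 1 and 2 alone the medians were 0.95 and 1.66 (35 of 57 and 60 of 69 higher), and with replicates 3 and 4 alone 0.50 and 0.78 (10 of 57 and 33 of 72 higher). At 10 counts or more in every library only 18 and 20 members remained, of which 14 and 18 were higher. With limma on the normalized values, 20 of 58 and 40 of 72 were higher.

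MKI67, the proliferation marker Ki-67 (Entrez 4288, chromosome 10, 129894923 to 129924687), was 331, 351, 260 and 292 CPM in SLIRP-Veh and 72.3, 105, 132 and 133 CPM with DHT, a 2.76-fold difference (edgeR FDR 2.69e-11). TOP2A, which untangles DNA before mitosis, was 205, 183, 164 and 186 CPM against 37.7, 45.5, 83.6 and 83.4 CPM. In both genes NS-1nM DHT replicates 1 and 2 were lower than 3 and 4, and all of them lay below every SLIRP-Veh library. TYMS (chromosome 18, 657653 to 673578) was at least 132 CPM in every SLIRP-Veh library against 43.0, 26.2, 50.5 and 50.5 CPM, but its locus overlaps ENOSF1. CDC20, which activates the anaphase-promoting complex, was 42.6, 39.1, 51.1 and 44.7 CPM against 8.39, 12.3, 8.71 and 19.7 CPM, or 8 to 27 counts per library with DHT. Its log2 difference was 1.79 (standard error 0.24, edgeR FDR 3.00e-07). KIF14, a kinesin of cytokinesis, PTTG1, the securin that guards separase, and CLSPN, an adaptor of the replication checkpoint, differed by 1.61, 1.59 and 1.34. Among p53 targets, 5 of 24 (20.8%) were higher and 2 (8.33%) lower, beside 11.2% and 10.8% over all genes, and the median was 0.32. The cell cycle inhibitor CDKN1A was one of the higher ones, at 191, 188, 252 and 245 CPM against 114 to 147 CPM (0.79, edgeR FDR 3.62e-06). The 5 higher became 3 without SLIRP-Veh replicate 3 or with limma, and the 2 lower 1 without SLIRP-Veh replicate 4 or NS-1nM DHT replicate 2 or 4.

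The promoters of these groups were searched for the words that cell cycle regulators bind. RefSeq windows of 250 bases before to 50 after a start site, on GRCh38.p14, were available for 46 of the 58 S phase genes (58 windows) and 61 of the 72 mitotic genes (77 windows). The words of E2F factors (TTTCCCGC, TTTGGCGC, TTTGCCGC or TTTCGCGC, either strand) were in 44.8% of S phase windows, 7.79% of mitotic windows and 3.31% of all 35116 windows. The cell cycle homology region word (TTTGAA, either strand), read by the MuvB complex in G2 and mitosis, was in 1.72% of S phase windows, 61% of mitotic windows and 15.2% of all windows. Both kinds were in 0 S phase windows, in 5 of 77 mitotic windows and in 0.376% of all windows. A match is a description of the letters and not a bound site. The windows shown are examples from named genes with a match before the start site, 5′ to 3′ on the gene's strand, with the words in capitals. CDC20 (chr1:43358891-43358946), CEP55 (chr10:93496471-93496526), MKI67 (chr10:128126424-128126477, minus strand) and TOP2A (chr17:40418017-40418072, minus strand) hold the homology region word, and TYMS (chr18:657589-657646) holds an E2F word.
CDC20: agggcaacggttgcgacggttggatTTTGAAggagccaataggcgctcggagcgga
CEP55: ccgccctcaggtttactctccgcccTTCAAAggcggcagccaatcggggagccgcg
MKI67: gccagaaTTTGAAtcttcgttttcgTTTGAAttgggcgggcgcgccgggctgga
TOP2A: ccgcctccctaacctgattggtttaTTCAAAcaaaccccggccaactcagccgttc
TYMS: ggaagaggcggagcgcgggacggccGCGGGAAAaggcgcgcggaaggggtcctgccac

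Interferon-stimulated genes had the lowest median of the 12 lists. These genes encode antiviral proteins and are switched on by STAT and IRF factors after interferon or foreign RNA is sensed. Of 57 listed, 47 were tested, of which 29 were lower in SLIRP-Veh than in NS-1nM DHT, 0 higher and 18 not called. Over all genes tested, 10.8% were lower and 11.2% higher. The list's median log2 difference was -1.05, against 0.00 over all genes. IFI6 (Entrez 2537, chromosome 1, 27992575 to 27998723) was 23.7, 14.1, 10.8 and 8.76 CPM in SLIRP-Veh and 226, 229, 206 and 175 CPM with DHT, a 13.2-fold difference (log2 difference -3.72, standard error 0.20, edgeR FDR 5.31e-17). IFIT1, which binds foreign RNA caps (chromosome 10, 91152303 to 91166244), was 5.92, 3.13, 8.07 and 4.38 CPM against 166, 133, 122 and 73.9 CPM. OASL, an adaptor of RNA sensing, was 6.51, 3.13, 2.69 and 0.876 CPM against 164, 113, 88.0 and 62.2 CPM. ISG15, a ubiquitin-like modifier, was 36.1, 23.5, 32.3 and 24.5 CPM against 160, 151, 134 and 125 CPM. In each of the 4 genes the groups lay far apart, and in all 4 replicate 4 was the lowest of the NS-1nM DHT libraries. XAF1 had 0 counts in SLIRP-Veh and 93 with DHT, which puts it at least 27.4-fold lower when 3 counts over the group are taken as the floor.

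Between NS-1nM DHT and NS-Veh, which share the nonsense siRNA, the median of the interferon list was -0.01. IFI6 was 222 ± 39.0 CPM (SD, n = 4) and IFIT1 96.0 ± 22.7 CPM (SD, n = 4) in NS-Veh. Every library on the high side had received the nonsense siRNA and every library on the low side the pool against SLIRP. A level set by one siRNA and a change made by the other cannot be told apart here. The list medians were -1.05 with replicates 1 and 2 alone and -0.99 with replicates 3 and 4 alone, with 25 members lower in each. At 10 counts or more in every library 20 members remained, of which 11 were lower, and their median was -0.56. With SLIRP-Veh replicate 4 left out 1 member was called higher.

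The interferon-stimulated response element was searched as 2 GAAA words with 2 bases between them, on either strand. Windows were available for 45 of the 57 genes, and 33 of their 59 windows held it (55.9%), beside 3.57% of all windows. The windows of IFI6 (chr1:27672251-27672310, minus strand), IFIT1 (chr10:89392495-89392554) and ISG15 (chr1:1013365-1013424) are shown as examples from the genes described, with the element in capitals. In ISG15 a pair of matches overlap and in IFIT1 a pair lie close together on the other strand. The full palindromic androgen response element, AGAACA and TGTTCT with 3 bases between them, was in 0 of 60 windows of the androgen-induced list and in 1 of all windows, and nothing about the receptor follows from these short windows.
IFI6: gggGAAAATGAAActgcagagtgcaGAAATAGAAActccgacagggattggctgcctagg
IFIT1: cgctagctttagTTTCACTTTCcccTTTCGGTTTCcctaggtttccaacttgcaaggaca
ISG15: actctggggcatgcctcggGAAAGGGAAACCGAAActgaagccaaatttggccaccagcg

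**Figure D4:**
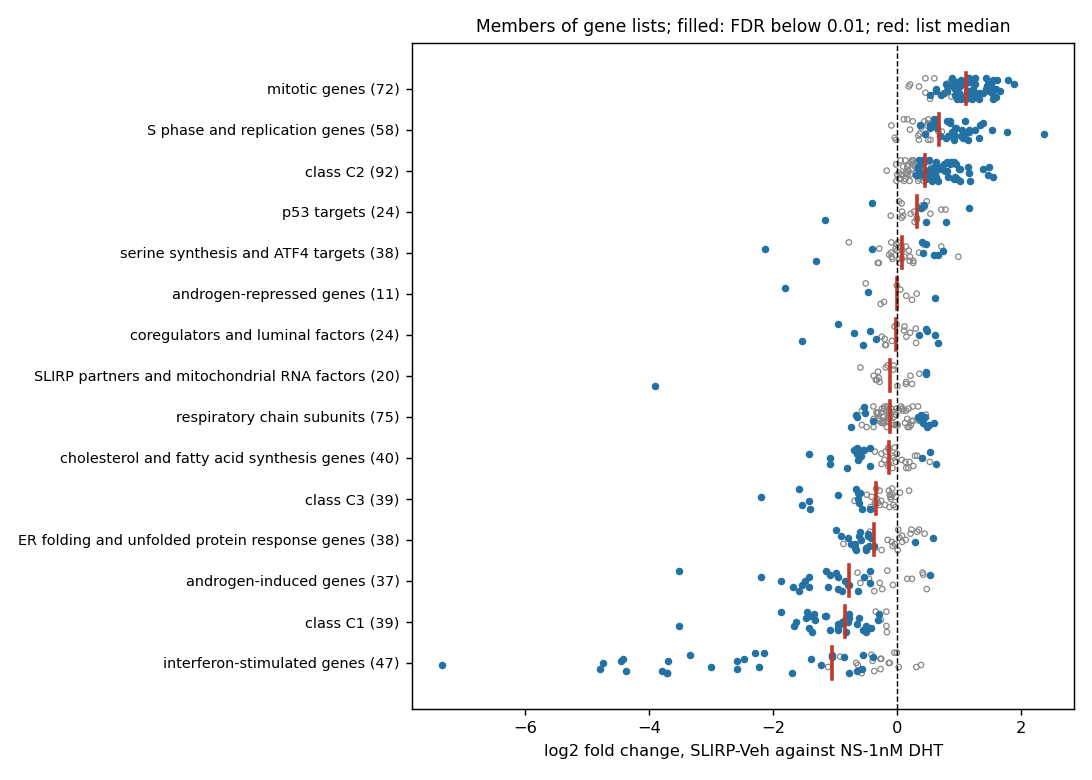
Log2 difference between SLIRP-Veh and NS-1nM DHT for each tested member of 12 pathway lists and the 3 classes of the study, with the number tested in brackets, filled points for genes called at the FDR, red lines for list medians and a dashed line for the median of all genes. The mitotic (1.11) and S phase (0.68) medians lie highest and the interferon median (-1.05) lowest, and the point at the far left is XAF1, whose fitted value is no bound.

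The study sorted its androgen-regulated genes into classes C1, C2 and C3 by their pattern in these same libraries, so their direction is no independent evidence. Beside the counts of each class stand 10.8% lower and 11.2% higher over all genes tested. In C1, 39 of 43 genes were tested, 33 lay lower in SLIRP-Veh than with DHT, none higher, and the median was -0.84. SGEF, an exchange factor for RhoG, was 154, 155, 184 and 181 CPM against 500, 470, 418 and 466 CPM. All 92 genes of C2 were tested, of which 51 were higher and 0 lower, with a median of 0.46. CEP55, a scaffold of the final cut between daughter cells, and ZWILCH, a kinetochore protein, differed by 1.54 and 1.49. The C2 count fell to 19 with replicates 3 and 4 alone, to 30 of 53 at 10 counts or more in every library and to 30 of 92 with limma. In C3, 13 of 39 tested genes lay lower, none higher, and the median was -0.34. KLK3, KLK4 and ELOVL7 differed most among its members with a mean of at least 30 counts.

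Coregulators of the hormone response went both ways. Of 24 coregulators and luminal factors, all tested, 5 (20.8%) were higher and 6 (25%) lower, beside 11.2% and 10.8% over all genes, and the median was -0.02. With limma 3 were higher. CTBP2, a corepressor that recruits histone deacetylases, was 52.7, 68.9, 55.2 and 49.1 CPM in SLIRP-Veh and 171, 145, 168 and 154 CPM with DHT (log2 difference -1.53, edgeR FDR 1.87e-12), and its locus overlaps ZRANB1. TNK2, the Ack1 tyrosine kinase, and NCOA2, a p160 coactivator, differed by -0.95 and -0.70. HDAC2 and HDAC3, the deacetylases of corepressor complexes, lay higher by 0.61 and 0.65.

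Among 20 tested partners of SLIRP and factors of mitochondrial RNA, 2 were higher and 1, SLIRP itself, was lower, with a median of -0.11, so the shares did not exceed the 11.2% and 10.8% over all genes. The count of 2 became 1 with limma and without SLIRP-Veh replicate 1 or NS-1nM DHT replicate 1, 2 or 4. LRPPRC, the partner of SLIRP in mitochondria, was 272, 327, 289 and 304 CPM against 229, 197, 215 and 217 CPM, with every SLIRP-Veh library above every NS-1nM DHT library (0.47, standard error 0.09, edgeR FDR 6.00e-05). RG9MTD1, a subunit of mitochondrial RNase P, also differed by 0.47, but its call was lost without SLIRP-Veh replicate 1 or NS-1nM DHT replicate 1, 2 or 4 (range 0.42 to 0.57). SRA1, the gene of the RNA that SLIRP holds, differed by -0.33 with a mean of only 30 counts and was not called. Of 75 nuclear-encoded respiratory chain subunits 8 were higher and 6 lower, near the share over all genes. COX8A, NDUFA1 and NDUFS4 led the lower ones with -0.66, -0.74 and -0.65. The NDUFA1 call was lost in 6 of the 8 refits that left out 1 library and that of NDUFS4 in 5, over ranges of -0.97 to -0.63 and -0.83 to -0.53, and that of COX8A without SLIRP-Veh replicate 1 (-0.57). The lower count of 6 became 2 and 3 without SLIRP-Veh replicate 1 or 2. The higher count of 8 became 5 without SLIRP-Veh replicate 2 or 3 or NS-1nM DHT replicate 1 and 4 without NS-1nM DHT replicate 2. With limma 3 were higher and 2 lower.

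Protein folding genes of the endoplasmic reticulum lay lower in part. Of 38 tested, 17 (44.7%) were lower and 2 (5.26%) higher, beside 10.8% and 11.2% over all genes, and the list median was -0.37. The 2 higher became 1 with limma and without any SLIRP-Veh replicate but 2 or any NS-1nM DHT replicate but 4. CREB3L4, a membrane-bound transcription factor of secretory cells, was 52.7, 39.1, 59.2 and 52.6 CPM against 120, 100.2, 97.5 and 95.1 CPM (-0.99, edgeR FDR 5.12e-07). HERPUD1, which assists degradation of misfolded proteins, and SEC61B, a subunit of the translocation channel, differed by -0.90 and -0.79. HSPA5, the chaperone BiP, differed by 0.01 and was not called. Of 40 cholesterol and fatty acid synthesis genes 13 (32.5%) were lower and 3 (7.5%) higher, against the same background, and the list median was -0.14. SC5DL, a sterol desaturase, differed by -1.08. In the list of serine synthesis and ATF4 targets 6 of 38 (15.8%) were higher and 3 (7.89%) lower, near the shares over all genes, with a median of 0.08. PSAT1 and SLC7A11, the cystine carrier (-1.31), lay lower, while the secreted glycoprotein gene STC2 (0.73) and the translation inhibitor EIF4EBP1 (0.66) lay higher.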

How the data were processed

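RNA of LNCaP cells in 16 libraries, 4 in each of 4 groups, was sequenced as single 50-base reads, and the labels gave the groups and replicate numbers. The authors deposited estimated counts for 20531 entries (29 without a symbol), rounded to whole numbers, and a normalized table of 13148 genes, a score made by dividing each library by its upper quartile. CASAVA and RSEM are named in the submitters' processing notes with hg19, while the annotation, the strand of counting and the tool versions are not given in the sources used here. The methods describe 2 biological replicates from each of 2 experiments, without saying which numbers belong to which, so p-values measure only the spread between these samples.

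The count model was fitted in R 4.3.3 by edgeR 4.0.16 (TMM, filterByExpr, glmQLFit and glmQLFTest) in a 4-group model over 16 libraries, with contrasts for the groups compared, Benjamini-Hochberg adjustment over 10684 genes and an FDR of 0.01, in place of the SAM analysis of the study. Standard errors came from the log2 difference and the F statistic, and 95% intervals from the t distribution. In simulated data for SLIRP-Veh against NS-1nM DHT with 200 of 10684 genes changed 2-fold, edgeR recovered 81.5% with 0 false calls. Only genes above a minimum mean CPM were changed, and libraries were drawn independently, without replicate pairs. The result therefore does not cover genes of few counts or libraries that split in pairs. Alternatives were DESeq2 1.42.0, RLE and upper-quartile scaling, other filters, only the groups compared, the replicate block, an FDR of 0.05, a margin of 0.3, limma 3.58.1 on log2(score + 1) of the normalized table and leaving out each library. Library totals lay between 436353 and 1689708 counts, which limits genes of few counts.

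Members and lists were chosen with earlier results of these data known. Named were SLIRP, KLK3, KLK2, TMPRSS2, FKBP5 and the 10 largest rises and falls (called at the FDR, mean count of at least 100, groups apart). The rule also named the 3 called members with the largest difference in each list and the 5 with the largest DHT change in each class. Both of these needed a mean count of at least 30. The list members XAF1, INSIG1, HSPA5, SRA1, HDAC2, HDAC3, EIF4EBP1, KRT8 and DPP4, and class members given without values, were chosen after their values were seen. Some genes that this rule names are not reported here. Coordinates of genes come from GENCODE on hg19, where 19899 of 20531 entries matched, and promoters from RefSeq on GRCh38.p14, matched by Entrez number. Plots were made in Python 3.11.15 using matplotlib 3.10.9.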

Additional observations from a re-analysis of the deposited data

Results flagged for a closer look

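In 188 tests of a named gene within a group of 4 libraries, 4 found 1 library far from the other 3 (its gap to the nearest over the whole range exceeded Dixon's 95% critical value), and chance gives about 1 in 20. FOLH1 was 1411 CPM in SLIRP-Veh replicate 2 against 1287 to 1289 CPM in the others. COX8A was 137 CPM in NS-1nM DHT replicate 4 against 118 to 120.3 CPM. NDUFS4 was 34.2 CPM in SLIRP-Veh replicate 4 against 21.5 to 22.5 CPM, and this library overlapped the hormone group. HIST1H2AL was 50.1 CPM in SLIRP-Veh replicate 2 against 38.6 to 40.4 CPM.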

How the results depend on the processing

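The direct counts of 1192 higher and 1157 lower genes stayed within 1.5 times under most settings. At an FDR of 0.05, 1754 genes were lower, limma on the normalized table called 738 higher, replicates 1 and 2 alone gave 749 lower, and replicates 3 and 4 alone gave 595 higher and 623 lower. Leaving out each library gave 944 to 1099 higher and 891 to 1040 lower. Every scaling moved the median of all genes by less than 0.1 on the log2 scale. None of the 94 named genes changed direction in a planned refit when called there or in the main fit. Of the 94, 11 lost their call in at least 1. Changes of direction among genes called in neither fit were not counted.

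Genes raised by DHT and beyond the hormone level numbered 54 at an FDR of 0.05, 41 with no filter on low counts, 17 at 10 counts or more in every library, 15 with limma and 6 to 20 without single libraries. Those at it numbered 23 at an FDR of 0.05, 5 with a margin of 0.3, 8 with limma, 6 without the shallowest library of each group (chosen after seeing the data) and 4 to 10 without single libraries. Those short of it numbered 3 at an FDR of 0.05, 2 with limma, 2 without the shallowest libraries and 1 to 2, and those not moved that way 23 to 34. Genes lowered by DHT and beyond the hormone level numbered 0 with limma and 0 to 8 without single libraries. Those at it numbered 27 at an FDR of 0.05, 4 with a margin of 0.3, 16 with no filter, 6 with limma, 6 without the shallowest libraries and 7 to 13. Those short of it numbered 1 at an FDR of 0.05 and 0 to 0 without single libraries. Those not moved that way numbered 30 at an FDR of 0.05, 22 with no filter, 4 with limma and 6 to 12. The causes were not tested.

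With the replicate number as a block, 1287 genes were higher and 1231 lower, and 17 genes lowered by DHT were at the hormone level and 17 not moved that way. Deviations of same-numbered SLIRP-Veh and NS-1nM DHT libraries had a mean correlation of 0.022 across 6965 genes (-0.031 to 0.053), and 2 of 4 SLIRP-Veh libraries correlated best with their own number, so same numbers were not taken as pairs. What else same-numbered libraries share, such as one of the 2 experiments, was not tested by this.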
